A study of Mus musculus with 6 samples.

Results

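The stem cell heptad is a set of 7 transcription factors, Gata2, Tal1, Lyl1, Lmo2, Runx1, Fli1 and Erg, measured here in sorted hematopoietic stem cells (HSCs) of PU.1 knock-in and wild-type mice. Its members were found by platform gene symbol, which gave 15 of the 45037 probe sets tested: 6 for Runx1, 2 each for Gata2, Fli1 and Erg, and 1 each for Tal1, Lyl1 and Lmo2. A probe set is a group of short oligonucleotides on the array that together read 1 transcript region. The arrays came from 3 samples of adult PU.1 ki/ki mice and 3 of adult wild-type mice, all sorted by the same gate (lin-, sca1+, ckit+, CD150+, CD48-). The labels call the PU.1 ki/ki mice knock-in and do not describe the allele, the strain, the sex or whether animals were pooled. No label ties replicates to separate animals, so the p-values reflect variation among these samples, possibly technical variation only.

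The 7 factors bind together at enhancers of blood stem and progenitor cells. Gata2 is a zinc finger protein that binds GATA sites, and Tal1 and Lyl1 are related basic helix-loop-helix proteins that bind E-boxes with E-protein partners. Lmo2 has no DNA-binding domain of its own and bridges GATA and helix-loop-helix factors, Runx1 binds with its partner Cbfb, and Fli1 and Erg are closely related ETS factors. Several members regulate their own and each other's genes, and PU.1, the ETS factor encoded by Spi1, is itself a gene with a heptad-bound enhancer.

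Promoter sequences show which of these binding letters lie next to the members' own starts. RefSeq windows (GRCm38.p6) were at hand for 5 of the 7 members, 10 windows in all, and those that begin outside the annotated gene and hold a match are printed for 4 members, 5' to 3', with matches in capitals. The capitals mark GATA (GATA factors), GGAA (the core of ETS sites) and CANNTG (the E-box), each on either strand. The Lyl1 sequence stops where the annotated gene begins.
Gata2, chr6:88193641-88193890, plus strand: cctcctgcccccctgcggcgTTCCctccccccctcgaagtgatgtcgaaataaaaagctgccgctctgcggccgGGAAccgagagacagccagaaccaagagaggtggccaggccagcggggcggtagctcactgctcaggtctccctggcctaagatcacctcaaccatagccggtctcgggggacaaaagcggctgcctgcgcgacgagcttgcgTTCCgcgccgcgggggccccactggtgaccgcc
Tal1, chr4:115056176-115056425, plus strand: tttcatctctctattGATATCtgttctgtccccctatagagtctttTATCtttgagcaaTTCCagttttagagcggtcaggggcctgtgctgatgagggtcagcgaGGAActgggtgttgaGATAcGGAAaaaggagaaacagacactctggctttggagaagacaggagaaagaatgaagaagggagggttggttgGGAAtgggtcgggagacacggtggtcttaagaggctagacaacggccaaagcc
Lyl1, chr8:84701207-84701422, plus strand: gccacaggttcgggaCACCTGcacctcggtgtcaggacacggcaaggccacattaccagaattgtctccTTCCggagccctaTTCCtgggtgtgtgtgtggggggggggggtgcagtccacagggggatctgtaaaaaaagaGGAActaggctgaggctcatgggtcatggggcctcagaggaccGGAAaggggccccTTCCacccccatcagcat
Runx1, chr16:92826075-92826324, minus strand: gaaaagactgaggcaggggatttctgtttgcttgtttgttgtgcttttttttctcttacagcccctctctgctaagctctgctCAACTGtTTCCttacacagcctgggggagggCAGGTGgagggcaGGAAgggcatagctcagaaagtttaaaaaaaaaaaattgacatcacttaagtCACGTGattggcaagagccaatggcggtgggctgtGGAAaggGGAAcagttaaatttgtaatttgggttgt

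In the 250 bases before the start, Lyl1 had 5 GGAA matches and 1 CANNTG match. At least 5 GGAA matches stood in 18% of all 32851 windows of that length, and at least 1 CANNTG in 66.2%. Tal1 had 4 GATA and 4 GGAA matches before its outermost start, the GATA matches including a pair that overlap on opposite strands. Of all windows, 3.52% held at least 4 GATA and 33.4% at least 4 GGAA. Before its other start Tal1 had 3 GGAA and 0 GATA matches. Gata2 had 3 GGAA matches before its outermost start, as 54.7% of windows had at least 3, and 1 before its other start. Before its distal start Runx1 had 3 CANNTG and 4 GGAA matches, and 12.2% of windows had at least 3 CANNTG. The other Runx1 window had 6 GGAA, 1 GATA and 0 CANNTG matches, and 8.69% of windows had at least 6 GGAA. Of the 3 Erg windows, the outermost had 0 matches to these 3 motifs. Another had 3 GATA, 2 GGAA and 2 CANNTG matches, and the other had 1 GATA and 4 GGAA matches. At least 3 GATA stood in 9.62% of all windows and at least 2 CANNTG in 31.8%. A short stretch just inside the distal Runx1 start is shown because it holds the letters bound by Runx1 itself, TGTGGT, 2 times on the opposite strand (in capitals), and 1.81% of 300-base windows held at least 2.
Runx1, chr16:92826025-92826054, minus strand: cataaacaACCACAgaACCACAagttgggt
These matches describe letters and were not tested as sites in these cells.

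Intensities are whole numbers on a linear scale with a minimum of 10, and array medians were 41 to 46. Every heptad probe set read 45 or more on every array, up to 4562. Wild-type replicates 2 and 3 stood apart from the other arrays. They correlated at 0.831 to 0.880 with each other and the rest, while the remaining 4 arrays (PU.1 ki/ki and wild-type replicate 1) correlated at 0.919 to 0.951. The Gapdh ratio of 3' to 5' signal, a common gauge of RNA quality, was 6.11 and 6.68 on wild-type replicates 2 and 3. It was 3.06, 2.98 and 4.75 on PU.1 ki/ki replicates 1, 2 and 3, and 3.36 on wild-type replicate 1. The part of RNA quality in the heptad values was not tested. Of probe sets whose median over the other 5 arrays was at least 512 (9 on the log2 scale), 11.5% and 11.3% lay 4-fold or more below that median on wild-type replicates 2 and 3, against 0.119 to 1.12% on the other arrays. Of the 9 heptad probe sets bright enough for this count, 1 lay that low on wild-type replicate 2 (Gata2 1450333_a_at). On wild-type replicate 3 it was 2 (Lmo2 1454086_a_at and Erg 1425370_a_at). The cause of these low values was not tested. The difference of each heptad probe set, and of most other genes named below, is therefore also given against wild-type replicate 1 alone, a fit in which the lone array is assumed to vary like the PU.1 ki/ki arrays. Differences are on the scale of log2(intensity + 1), PU.1 ki/ki minus wild type, with standard errors (SE) and 95% intervals from limma, a linear model fitted to all probe sets, and adjusted p-values are Benjamini-Hochberg over all of them.

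No heptad probe set passed an adjusted p of 0.05, as was so for all 45037 probe sets (0% called). Of the 15, 12 had a positive difference and 3 a negative one, with a median of 0.28. Over all probe sets 52.8% were positive. Of those at or above the median level, as all 15 are, 59.6% were positive, with a median difference of 0.16. Centring each array shifted the median over all probe sets from 0.0021 to -0.105, and then 11 of the 15 and 42.4% of all were positive. With a further quantile normalization these were 10 of 15 and 46.6%. The groups did not overlap in 2 of 15 (13.3%), Lyl1 and 1 Erg probe set, both higher in PU.1 ki/ki. This was near the background of 12.1% of all probe sets (6.62% with PU.1 ki/ki higher) and 13.8% of those at or above the median level. An unadjusted p under 0.05 was reached by 0 of 15, against 8.28% of all. All 15 intervals held 0, and the adjusted p-values ran from 0.637 to 1. Fewer cells of a type and less RNA per cell cannot be told apart in such bulk samples.

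**Figure D1:**
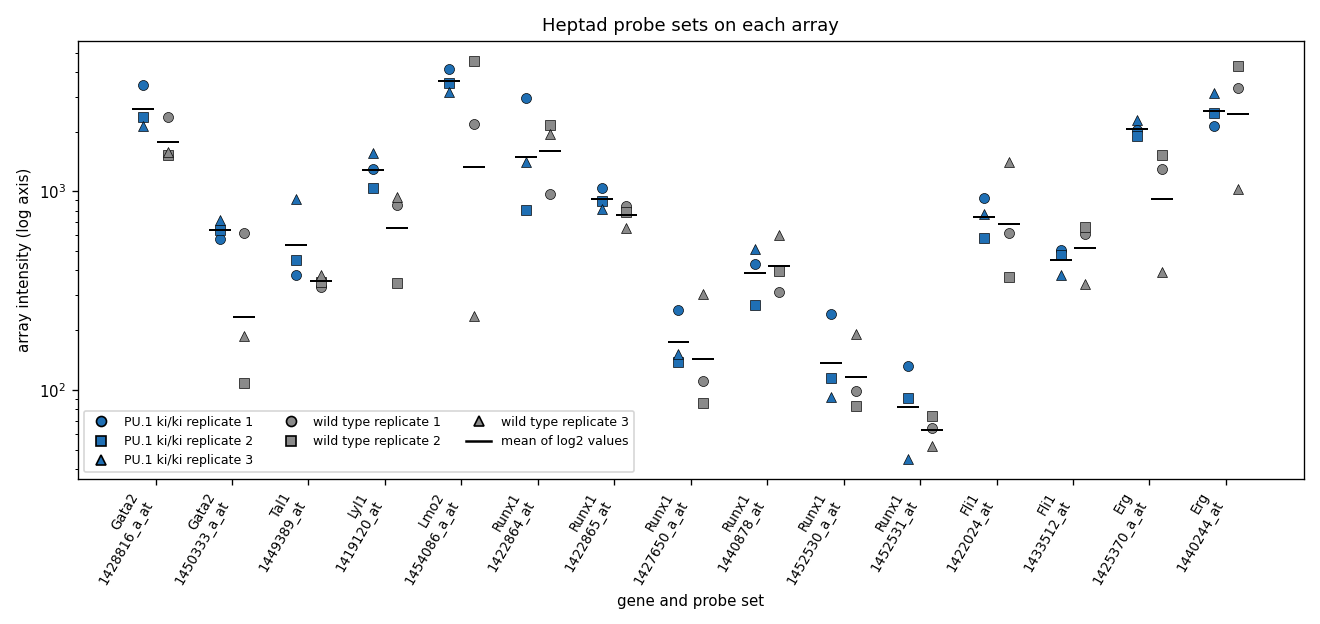
Array intensity (log axis) of the 15 heptad probe sets, with 1 point per array, symbols for replicate numbers and bars at the mean of log2 values. The groups are separate for Lyl1 and Erg 1425370_a_at and overlap for the other 13. The low wild-type points are replicates 2 and 3 for Gata2, replicate 2 for Lyl1 and replicate 3 for Lmo2 and Erg.

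Gata2, a factor needed for stem cell maintenance, was read by 2 probe sets that both had higher means in PU.1 ki/ki. On 1428816_a_at it read 3448, 2359 and 2141 in PU.1 ki/ki and 2369, 1520 and 1573 in wild type. Wild-type replicate 1 thus lay within the PU.1 ki/ki range, and replicates 2 and 3 lay below all PU.1 ki/ki arrays. The difference was 0.54 ± 0.28 (SE, 95% interval -0.18 to 1.26, n = 3 per group, limma adjusted p = 0.660), and 0.13 against wild-type replicate 1 alone. On 1450333_a_at the values were 575, 640 and 713 against 619, 108 and 186. Here the PU.1 ki/ki arrays were close together, wild-type replicate 1 was among them, and the other wild-type arrays were far below. Its difference of 1.46 ± 0.67 (-0.25 to 3.18, limma adjusted p = 0.639) was 0.91 without wild-type replicate 2 and 0.05 against wild-type replicate 1 alone. The 1428816_a_at difference was 0.33 without PU.1 ki/ki replicate 1, its highest array, and 0.42 and 0.45 without wild-type replicates 2 and 3. Both Gata2 differences were close to 0 against wild-type replicate 1 alone.

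Tal1, also called Scl, a master factor of blood specification, read 377, 450 and 919 in PU.1 ki/ki and 330, 351 and 379 in wild type. The wild-type arrays were close together, and 1 PU.1 ki/ki array stood high. The groups overlapped only through the lowest PU.1 ki/ki array, at 377, and the highest wild-type array, at 379. The difference was 0.61 ± 0.37 (-0.33 to 1.55, limma adjusted p = 0.683). It was 0.22 without PU.1 ki/ki replicate 3 and 0.70 against wild-type replicate 1 alone. For Tal1 the spread lay in the PU.1 ki/ki group, with an SD of log2 values of 0.68 against 0.0998 in wild type.

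Lyl1, the paralogue of Tal1 that can stand in for it in adult stem cells, was the member with the lowest p. It read 1294, 1043 and 1560 in PU.1 ki/ki and 849, 346 and 935 in wild type. Every PU.1 ki/ki array lay above every wild-type array, with replicate 2 the lowest of the wild type. The means were 1299 ± 259 and 710 ± 318 (SD, n = 3), and the difference was 0.98 ± 0.44 (-0.16 to 2.11, 1.97-fold, limma adjusted p = 0.637). It was 0.52 without wild-type replicate 2, 1.24 without replicate 3 and 0.59 against replicate 1 alone. When arrays were centred on their medians the Lyl1 groups overlapped.

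Lmo2, the bridging factor, varied more among wild-type arrays than any other member. It read 4146, 3499 and 3158 in PU.1 ki/ki and 2195, 4562 and 236 in wild type. The wild-type group held both the highest and the lowest of the 6 values, and its highest was 19.3 times its lowest, against 1.31 times in PU.1 ki/ki. Wild-type replicate 3 lay 14.8-fold under the median of the remaining 5. The difference of 1.42 ± 1.15 (-1.51 to 4.36, limma adjusted p = 0.743) was 0.18 without that array, 2.31 without wild-type replicate 2 and 0.70 against wild-type replicate 1 alone.

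Runx1, a factor required for the emergence of blood stem cells, gave small differences of either sign on its 6 probe sets, from -0.11 to 0.37, with overlap on all. On 1422864_at it read 2969, 803 and 1402 against 970, 2154 and 1944. A PU.1 ki/ki array was the highest and another the lowest, and the difference was -0.09 ± 0.59 (-1.60 to 1.42, limma adjusted p = 0.989). Against wild-type replicate 1 alone it was 0.62. On 1422865_at, the steadiest of the 15, it read 1043, 890 and 817 against 848, 789 and 650. The groups overlapped by 1 wild-type array. The difference was 0.27 ± 0.17 (-0.17 to 0.71, limma adjusted p = 0.697), an interval that leaves out a 2-fold change, and it was 0.10 against wild-type replicate 1 alone. Of the other Runx1 probe sets, 1440878_at read 268 to 512 in PU.1 ki/ki and 312 to 605 in wild type, and 1427650_a_at read 138 to 253 and 86 to 305. The dimmest were 1452530_a_at, at 92 to 242 and 83 to 190, and 1452531_at, at 45 to 132 and 52 to 74. Against wild-type replicate 1 alone these 4 differed by 0.32, 0.64, 0.46 and 0.35, in the order given. PU.1 ki/ki replicate 1 was the highest array on 4 of the 6 Runx1 probe sets. The suffix _a marks a probe set designed to read several transcripts of a gene, so the 6 need not read the same Runx1 transcripts.

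Fli1, an ETS factor of stem cells, megakaryocytes and endothelium, had opposite signs on its 2 probe sets. On 1422024_at it read 924, 582 and 773 against 616, 372 and 1411, a difference of 0.12 ± 0.54 (-1.25 to 1.49, limma adjusted p = 0.972). On 1433512_at it read 508, 476 and 378 against 613, 661 and 343, a difference of -0.20 ± 0.31 (-0.99 to 0.58, limma adjusted p = 0.866). Wild-type replicate 3 was the highest on the first and the lowest on the second, and wild-type replicate 2 the reverse. PU.1 ki/ki replicate 1 was the highest of its group on both. Against wild-type replicate 1 alone the differences were 0.28 and -0.44. The mean of both gave -0.04 ± 0.20.

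Erg, the ETS factor closest to Fli1 and needed for stem cell self-renewal, differed between its 2 probe sets. On 1425370_a_at it read 2029, 1890 and 2297 in PU.1 ki/ki and 1298, 1529 and 391 in wild type. All PU.1 ki/ki arrays were above all wild-type arrays, and wild-type replicate 3 was the lowest by far. The difference was 1.17 ± 0.56 (-0.27 to 2.61, 2.25-fold, limma adjusted p = 0.645), 0.55 without wild-type replicate 3 and 0.67 against replicate 1 alone. On 1440244_at it read 2145, 2481 and 3114 against 3324, 4278 and 1023. Here wild-type replicates 1 and 2 were above every PU.1 ki/ki array and replicate 3 below them. The difference was 0.06 ± 0.59 (-1.45 to 1.57, limma adjusted p = 1), -0.56 without wild-type replicate 3 and -0.38 against replicate 1 alone.

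**Figure D2:**
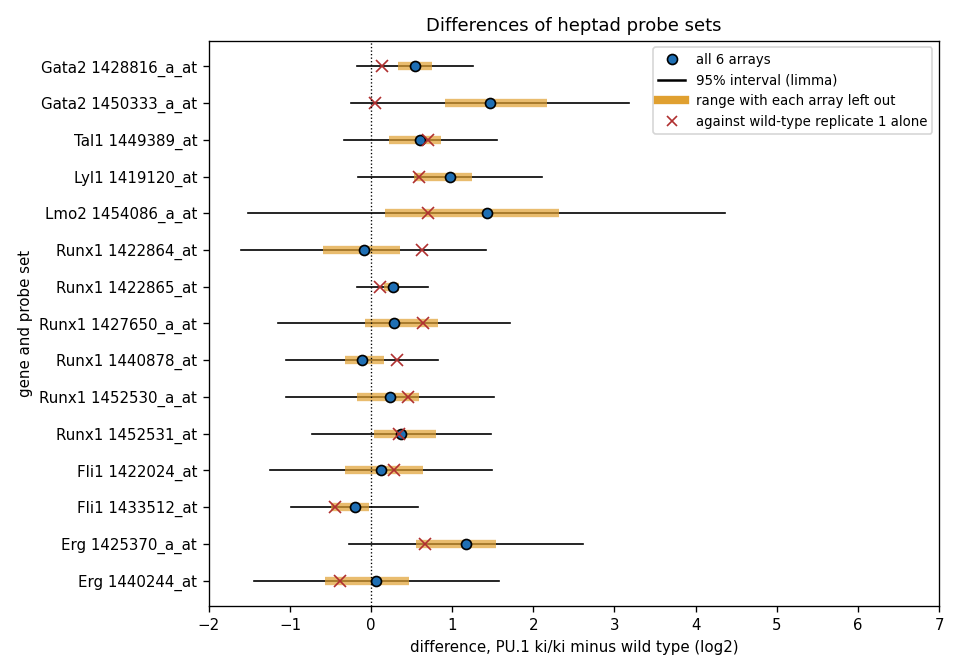
Difference in log2 (PU.1 ki/ki minus wild type) of each heptad probe set (points), with 95% intervals (lines), the range when each array was left out in turn (bars) and the value against wild-type replicate 1 alone (crosses). All intervals cross 0, and both Gata2 crosses lie near 0, at 0.13 and 0.05.

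The ratio of the Erg probe sets within an array separated the groups. Each array's overall level cancels in this ratio, and the part of other differences between arrays, such as RNA quality, was not tested. The log2 ratio of 1425370_a_at over 1440244_at was -0.08, -0.39 and -0.44 in PU.1 ki/ki and -1.36, -1.48 and -1.39 in wild type. Wild-type replicate 3 had the lowest level on both probe sets and a ratio between those of the other wild-type arrays. The groups differed by 1.10 ± 0.59 (-0.23 to 2.44). A limma fit to the ratios of all 14140 pairs of same-gene probe sets, added after the Erg values were seen, gave this an adjusted p of 0.738 and called 0 pairs (0%). At an unadjusted p under 0.05 were 6.87% of pairs. The groups did not overlap in 13% of all pairs and in 1 of the 18 pairs of heptad probe sets, the Erg pair. Of the other genes with 2 probe sets, the Gata2 ratio differed by -0.92 ± 0.71 (adjusted p = 0.794) and the Fli1 ratio by 0.32 ± 0.82 (adjusted p = 0.947). Which Erg transcripts the probe sets read is not given in the sources used here.

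**Figure D3:**
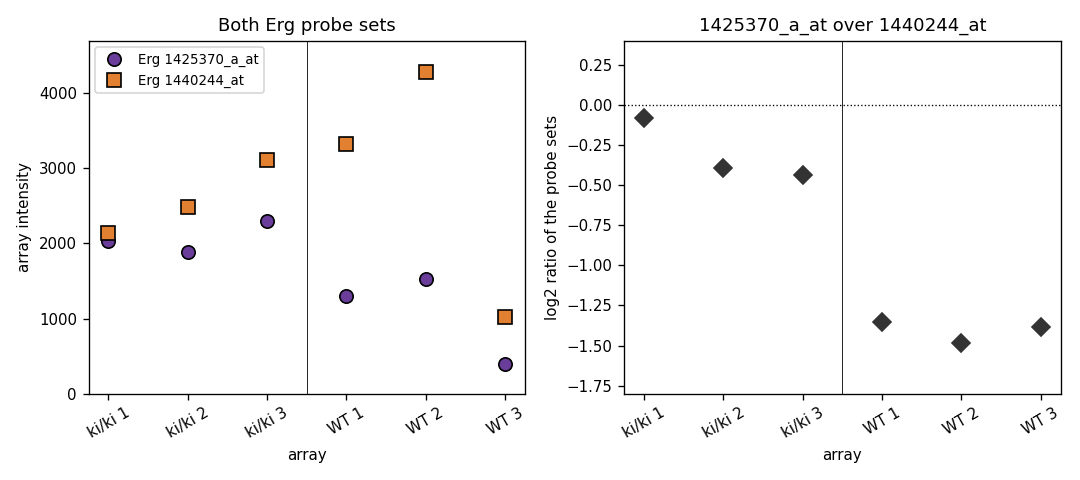
Left, array intensity of the Erg probe sets on each array; right, their log2 ratio within each array. The ratio lies between -0.44 and -0.08 in PU.1 ki/ki and between -1.48 and -1.36 in wild type. Wild-type replicate 3 is low on both probe sets.

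The array on which a member was lowest was not the same for all. Of the 15 heptad probe sets, 6 were lowest on wild-type replicate 2 and 5 on replicate 3, while 3 were lowest on a PU.1 ki/ki array and 1 on wild-type replicate 1. Among all probe sets at or above the median level, 25.2% were lowest on wild-type replicate 2 and 28.9% on replicate 3. The wild-type replicates 2 and 3 also held the highest value of 6 heptad probe sets, among them Lmo2, Erg 1440244_at and both of Fli1. The SD of log2 values was larger in wild type than in PU.1 ki/ki for 10 of 15, close to the 71.7% of all probe sets.

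With the probe set of highest mean standing for each gene, the 7 heptad genes had a median difference of 0.54, with 6 positive and Runx1 at -0.09. The median over all 18193 genes was 0.0083, and 52.2% were positive. Among probe sets at or above the median level, where all the heptad probe sets lie, the median was 0.16 and 59.6% were positive. Leaving out single arrays gave 0.22 to 0.61, the lowest without PU.1 ki/ki replicate 3, which held the high Tal1 value, and 0.33 without PU.1 ki/ki replicate 1. Against wild-type replicate 1 alone it was 0.59. With the mean of all probe sets of a gene it was 0.61, and Gata2 differed by 1.00 ± 0.42 and Erg by 0.61 ± 0.56.

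Differences of genes that work with the heptad lay on both sides of 0. Of 23 partners and cofactors (E-proteins, Ldb1 and its binding proteins, Cbfb, the Eto family, Gfi1b, PU.1 and corepressors), 13 were higher and 10 lower, with a median of 0.14. Adjusted p-values under 0.05 were reached by 0, an unadjusted p under 0.05 by 1 (8.66% of all genes), and no overlap was seen in 3, against 12.8% of all genes. Hdac1, a histone deacetylase, read 1001, 880 and 1245 against 829, 204 and 145 (1.82 ± 0.70, limma adjusted p = 0.602). It was low on wild-type replicates 2 and 3, and the difference was 0.31 against wild-type replicate 1 alone. Gfi1b, a repressor needed for erythroid and megakaryocytic development, read 922, 612 and 1207 against 605, 360 and 633 (0.77, limma adjusted p = 0.641). Its groups overlapped, and the difference was 0.54 against wild-type replicate 1 alone. Sin3a, a corepressor scaffold, read 644, 639 and 320 against 1032, 724 and 1793 (-1.11, limma adjusted p = 0.613; -1.02 against wild-type replicate 1 alone), without overlap. Another Sin3a probe set had the opposite sign, also without overlap, at 297 to 349 against 209 to 257. Cbfa2t2, an Eto family corepressor, read 184, 232 and 442 against 574, 492 and 344 (-0.79, limma adjusted p = 0.657), and -1.11 against wild-type replicate 1 alone. Ldb1, which joins Lmo2 complexes into pairs, read 1000 to 2027 against 1723 to 2116 (-0.48), and Cbfb read 1970 to 3172 against 1929 to 2528 (0.30, and 0.06 against wild-type replicate 1 alone). Spi1 read 170, 212 and 161 against 158, 195 and 199 (-0.03, limma adjusted p = 0.992), and 0.18 against wild-type replicate 1 alone. The partners' median was -0.0082 against that array alone.

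Of 13 measured relatives of the heptad (GATA, helix-loop-helix, LIM-only, Runx and ETS genes and the Id inhibitors), 7 were higher and 6 lower, with a median of 0.04. The median was -0.11 after a further quantile normalization, -0.07 with arrays centred and -0.033 against wild-type replicate 1 alone. Adjusted p-values under 0.05 were reached by 0 and unadjusted by 3, all higher, against 8.66% of all genes in either direction. No overlap was seen in 4 of the 13, 3 higher and 1 lower, against 12.8% of all genes. Runx3, a paralogue of Runx1, read 658, 378 and 539 against 285, 178 and 146. All PU.1 ki/ki arrays were above all wild-type arrays, and the difference was 1.39 ± 0.34 (limma adjusted p = 0.502), and 0.84 against wild-type replicate 1 alone. The other Runx3 probe set, at 42 to 81 against 22 to 103, differed by 0.13. Etv6, an ETS repressor needed by adult HSCs, read 1525, 2062 and 1440 against 1281, 728 and 601 (1.00, limma adjusted p = 0.568), also without overlap. It differed by 0.37 against wild-type replicate 1 alone, and its other probe set differed by 0.07 with overlap. Lower were Id2, an inhibitor of E-proteins, at 18, 45 and 37 against 78, 66 and 44 (-0.95, limma adjusted p = 0.625), and Tal2, at 12 to 13 against 14 to 29, near the minimum of 10. The Id2 difference was -0.57 without PU.1 ki/ki replicate 1 and -1.30 against wild-type replicate 1 alone, and its 2 other probe sets differed by -0.31 and 0.09. Of the 13, 7 read under 100 on every array.

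Of 19 measured genes with regulatory elements known to be bound by heptad factors, 13 were higher and 6 lower, with a median of 0.25. Spi1, Gfi1b, Meis1 and Zfpm1 are in this list and also among the partners. Adjusted p-values under 0.05 were reached by 0 and unadjusted by 2, both higher, against 8.66% of all genes in either direction. No overlap was seen in 4 of the 19, 3 higher and 1 lower, against 12.8% of all genes. Tek, the angiopoietin receptor, read 722, 730 and 523 against 321, 341 and 291 (1.04 ± 0.18, limma adjusted p = 0.430). All 3 wild-type arrays were close together here, and the difference was 1.02 against wild-type replicate 1 alone. Cd34 read 1152, 583 and 1196 against 98, 64 and 200 (3.09, limma adjusted p = 0.430), and 3.23 against wild-type replicate 1 alone. Lower were Gfi1, a repressor of stem cell cycling, at 252, 183 and 96 against 554, 1161 and 232 (-1.69, limma adjusted p = 0.613), and Myb, at 3123, 2265 and 3128 against 5035, 4655 and 3161 (-0.58, limma adjusted p = 0.621). Against wild-type replicate 1 alone these were -1.75 and -0.84. The Myb groups did not overlap on that probe set and overlapped on its 2 others, which differed by 0.24 and -0.14.

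**Figure D4:**
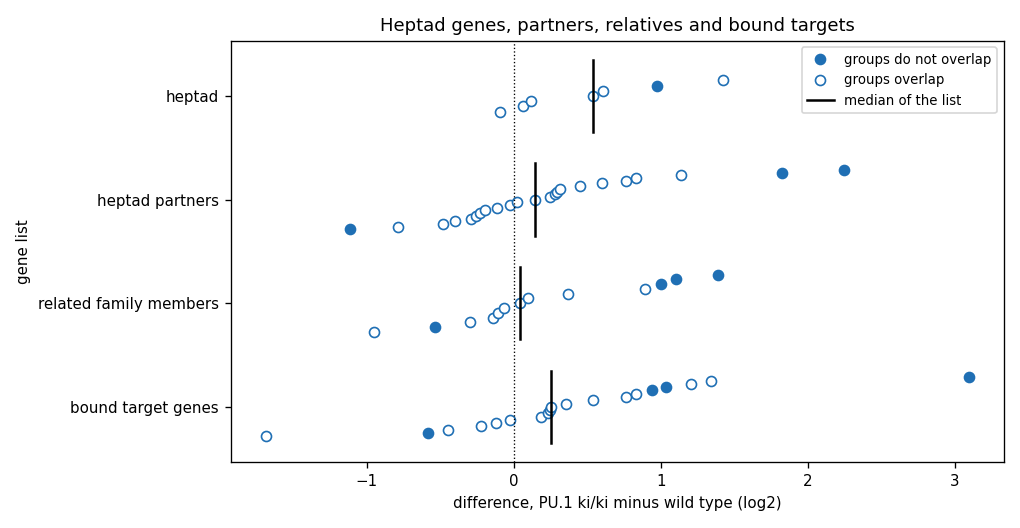
Difference in log2 (PU.1 ki/ki minus wild type) of each gene in 4 lists, 1 probe set per gene, filled where the groups do not overlap, with a bar at each list's median. The medians are 0.54 (heptad), 0.14 (partners), 0.04 (relatives) and 0.25 (bound targets), and each list has genes on both sides of 0. Spi1, Gfi1b, Meis1 and Zfpm1 are shown under both partners and bound targets.

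Of 8 measured HSC markers, 6 read at least 100 on every array, the exceptions being Slamf1 and Fgd5. Slamf1 encodes CD150, a marker of the sort gate, and read 696, 1525 and 170 in PU.1 ki/ki and 440, 54 and 42 in wild type, so that wild-type replicates 2 and 3 were near the array medians. Fgd5 was lowest on wild-type replicate 2, at 67. Markers of other cells that use heptad factors were dim in some lists and not in others. Of 8 endothelial markers 5 read under 100 on every array, Cdh5 at 15 to 32, and the list summed to 657 to 773 in PU.1 ki/ki and 445 to 1015 in wild type. Of 7 mast cell markers 5 read under 100 on every array, and the sums were 174 to 224 and 333 to 465, lower in PU.1 ki/ki for 7 of 7. None of the 5 megakaryocyte markers read under 100 on every array, and they summed to 1804 to 3717 and 1246 to 1876, and 4 of the 5 had a higher mean in PU.1 ki/ki. Among them Vwf read 815 to 1435 against 298 to 617 without overlap, while Itga2b differed by 0.23 and Gp9 by -0.45, both with overlap. Of 6 erythroid markers 2 were higher and 4 lower, with sums of 590 to 1102 and 488 to 1301. Klf1, an erythroid factor, read 118 to 159 against 11 to 42, without overlap (2.57, limma adjusted p = 0.463). Hba-a1, a globin gene, went the other way, at 36 to 47 against 48 to 85, also without overlap (-0.69, limma adjusted p = 0.595). The 6 macrophage markers were all higher in mean, with a median of 1.03 and sums of 536 to 1519 and 236 to 645. C1qb, a complement component, read 567, 119 and 73 against 10 on each wild-type array, the minimum of the table. Neutrophil markers were bright in both groups, with sums of 13764 to 20560 and 17826 to 23721, lower in PU.1 ki/ki for 7 of 7. Of the measured B cell, T cell and stroma markers, 1 of 5, 1 of 3 and 2 of 4 were higher. The part of these cells in the heptad values was not tested.

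The gene most like each member over the 6 arrays was found by Pearson's r of log2 values among 11048 genes. Lmo2 was matched best by Srp19 (r = 0.996), a signal recognition particle protein that read 1494 to 1552 in PU.1 ki/ki and 955, 1687 and 112 in wild type, with the same low array. For Erg by 1440244_at it was Ficd (0.999), for Lyl1 Nufip1 (0.993) and for Tal1 Ptpn1 (0.993). For Runx1 it was Card19 (0.991), for Fli1 Ccdc184 (0.993) and for Gata2 N4bp2l2 (0.987). At a lower level, 486 genes had r over 0.9 with Lmo2 and 31 with Runx1. Each r named above is the highest of 11048 values over only 6 arrays. These values share arrays and are given as a description.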

How the data were processed

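RNA of sorted HSCs was hybridised to 6 single-colour arrays, 3 per genotype. The deposited intensities, 1 per probe set and array, come from RMA (a version is not given in the sources used here), per the submitters' processing notes. They are whole numbers from 10 to 27574, so the log scale usual for RMA had been undone, and that step and the minimum are not described. Of 45101 table entries, 64 controls were left out. The description label of each sample names embryos, against all the other labels, and was not used. Symbols came from the platform annotation, and 34945 probe sets had 1 symbol.

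Values were tested as log2(intensity + 1) with genotype as the only term (limma 3.58.1, lmFit and eBayes, R 4.3.3), a pseudocount that understates differences of dim probe sets. The steps were tested on simulated data. Members, lists and tests were chosen with earlier results of these data known. All heptad probe sets are named, and so are Spi1, the 2 higher and 2 lower genes of each list with the lowest p, and the gene most correlated with each member; a few further list genes and all markers were picked by hand from their lists after the values were seen. Alternatives were a further quantile normalization, centring, a pseudocount of 16, leaving out dim probe sets, a trended and robust prior, array weights, a replicate block, an unmoderated test, the mean of a gene's probe sets, each array left out, and wild-type replicates 2 and 3 left out together. The number of arrays limits the precision. Motifs were searched as letters on both strands (Python 3.11.15), and figures were drawn with matplotlib 3.10.9.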

Additional observations from a re-analysis of the deposited data

How the results depend on the processing

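Under every alternative run for it, including the unmoderated test, 0 of all probe sets passed an adjusted p of 0.05 in limma, and the lowest adjusted p of a heptad probe set was 0.143 (Gata2 1450333_a_at without wild-type replicate 1). Of the 15 heptad probe sets, 9 kept their sign throughout: those of Gata2, Tal1, Lyl1 and Lmo2, 2 of Runx1, 1 of Fli1 and 1 of Erg. Arrays with the same replicate number had correlations of deviations of -0.0159, 0.0207 and -0.0168. Without the same values for other pairs of arrays, these do not settle whether the replicates were paired. With the replicate block 2 heptad probe sets (Gata2 1428816_a_at and Lyl1) had an unadjusted limma p under 0.05, against 3369 of all 45037. Leaving out single arrays gave 0 to 2 heptad probe sets at that level, against 2535 to 7183 of all. The heptad probe sets without overlap were 1 after centring and 2 to 6 when single arrays were left out, where fewer arrays make separation easier. The share of all probe sets without overlap is not given for these settings, so these counts have no background to be read against. Over all probe sets, 3731 had an unadjusted p under 0.05, against 1701 with dim ones left out, where fewer were tested, 2835 in the unmoderated test and 2535 to 7183 without single arrays. The bound targets' median was 0.37 with wild-type replicates 2 and 3 left out together. The median of the 7 heptad genes was 0.22 to 0.61 without single arrays.

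Signs changed as follows, and the cause was not tested. Erg 1440244_at was -0.0011 after quantile normalization, -0.045 after centring, -0.025 with array weights, -0.38 with wild-type replicates 2 and 3 left out together and -0.56 to 0.47 without single arrays. Fli1 1422024_at was -0.0096 after quantile normalization and -0.32 to 0.64 without single arrays. Runx1 1422864_at and 1440878_at were 0.62 and 0.32 with wild-type replicates 2 and 3 left out together, and -0.59 to 0.35 and -0.33 to 0.16 without single arrays. Runx1 1427650_a_at and 1452530_a_at ranged from -0.081 to 0.83 and from -0.18 to 0.59. Spi1 was 0.0088 with array weights, 0.18 with wild-type replicates 2 and 3 left out together and -0.14 to 0.052 without single arrays. The difference in the Erg ratio stayed at 0.99 to 1.17, with adjusted p of 0.427 to 0.995.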
